A study of Rattus norvegicus with 9 samples.

Results

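Neural stem cells (NSCs) that leave the cell cycle to become neurons build a cytoskeleton of their own, and 10 genes that mark this step were examined: the microtubule-associated proteins Map2, Mapt, Map1b and Map1a, the tubulin Tubb3, the doublecortin family members Dcx and Dclk1, the growth-cone proteins Stmn2 and Gap43, and Rbfox3, which encodes the neuronal nuclear antigen NeuN. They were taken by symbol from the 23953 genes of the count table, and all 10 were found. The RNA-seq libraries were described by the submitters as NSCs of neonatal rat spinal cord kept in differentiation medium, an origin that the gene names and tissue markers given below did not bear out in full. The Con group received the medium and nothing else, the Exo group exosomes secreted by mesenchymal stem cells of bone marrow that had been given a lentivirus without insert, and the pLV-Exo-Wnt5a group exosomes of the same cell type carrying a lentiviral Wnt5a construct. Each group had 3 libraries, all with the same batch date in the labels. Wnt5a was overexpressed in the donor cells and not in the NSCs, and the cultures are bulk samples in which fewer neurons and less RNA per neuron cannot be told apart. The labels do not say whether the 3 libraries of a group were separate cultures, so the p-values measure the spread between these libraries, which may be technical.

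Microtubules are hollow polymers of alpha- and beta-tubulin. In a young neuron, Dcx and Map1b bind and stabilize the microtubules of the leading process and the growing axon, Stmn2 binds free tubulin in the growth cone and favours disassembly, and Gap43 lies under the growth-cone membrane. As the neuron matures, Map2 becomes the main microtubule-associated protein of dendrites, tau (Mapt) that of axons, and Map1a follows Map1b. Dcx is lost in mature neurons, whereas Tubb3 and Rbfox3 persist.

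The promoters of 3 genes are shown because Dcx and Map1b had low values together and Dclk2, a doublecortin relative described below, a high one in the comparison of the pLV-Exo-Wnt5a and Exo groups. Each sequence holds the 250 bases before the annotated start of the rat gene (RefSeq, assembly GRCr8), rat being the organism of the labels, read 5′ to 3′ on the strand of the gene. Capitals mark TATAAA or TTTATA, GC boxes (GGGCGG or CCGCCC) and CCAAT boxes (CCAAT or ATTGG), which were searched for on both strands and do not overlap in these windows. The windows lie at chrX:112304162-112304411 (Dcx), chr2:32644472-32644721 (Map1b) and chr2:174636193-174636442 (Dclk2), each on the minus strand.
Dcx: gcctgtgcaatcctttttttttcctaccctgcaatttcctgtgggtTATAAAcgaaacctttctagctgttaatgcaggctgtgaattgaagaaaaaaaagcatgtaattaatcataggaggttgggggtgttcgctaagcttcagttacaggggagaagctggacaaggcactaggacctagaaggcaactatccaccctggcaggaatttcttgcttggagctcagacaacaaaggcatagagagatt
Map1b: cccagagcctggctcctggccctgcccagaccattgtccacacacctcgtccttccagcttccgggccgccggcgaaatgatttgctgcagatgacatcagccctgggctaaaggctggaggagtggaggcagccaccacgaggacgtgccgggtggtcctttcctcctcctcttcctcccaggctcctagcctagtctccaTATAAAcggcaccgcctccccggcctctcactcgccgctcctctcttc
Dclk2: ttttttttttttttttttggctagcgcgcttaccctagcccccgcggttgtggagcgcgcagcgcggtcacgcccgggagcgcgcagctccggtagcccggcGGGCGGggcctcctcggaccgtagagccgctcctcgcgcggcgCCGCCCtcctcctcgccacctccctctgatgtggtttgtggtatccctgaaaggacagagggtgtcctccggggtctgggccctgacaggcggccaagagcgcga
The Dcx window held 1 TATAAA, 204 bases before the start, and no GC box or CCAAT box, with 44% G and C bases. The Map1b window held 1 TATAAA 48 bases before the start, and had 63.6% G and C. The Dclk2 window held 2 GC boxes, 148 and 105 bases before the start, and had 67.6% G and C. A window of the reference table was matched for 6 of the 10 genes, and the others of these were Map2 with 32% G and C, Map1a with 60.4%, Tubb3 with 68% and Dclk1 with 55.2%. The Map2 window held no TATAAA, GC box or CCAAT box, although Map2 was also lower in that comparison. GC boxes numbered 2 in Map1a, 2 in Tubb3 and 1 in Dclk1, none of which rose with Dclk2, and Tubb3 had 1 CCAAT box. The windows of the lower genes thus did not share a motif. Over the 33469 windows of the reference, TATAAA was found in 12.9%, a GC box in 30.5% and a CCAAT box in 34%, and the median share of G and C was 51.2%. These matches describe letters in a window of the annotation and are not evidence that a factor bound there.

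Levels are given as CPM, the counts of a gene scaled to a library of 1000000 counts after TMM scaling, which corrects for library composition. CPM does not account for transcript length, so levels were compared between libraries and not between genes. Total counts per library lay between 32765138 and 40427647, so the upper limit behind an observed count of 0, taken as 3 counts, was 0.0727 to 0.0908 CPM on the same TMM scale (counting error only). The 10 genes had between 1945 and 82380 counts in a library, far above that limit, and together took between 0.582% and 0.730% of the counts. Con replicate 1 stood apart, with a TMM factor of 0.95 against 0.996 to 1.02 in the other 8 libraries, and with the lowest of the 9 levels for 6 of the 10 genes. The highest levels fell in pLV-Exo-Wnt5a replicate 2 for 5 genes, Exo replicate 2 for 4 and Exo replicate 1 for 1. Gene names and NCBI numbers in the table are those of the mouse, while the labels give rat as the organism. Of 19 Hox genes that mark the spinal cord, 7 had an entry and none of these had more than 2 counts in a library, whereas the forebrain genes Lhx2 and Tbr1 lay between 157 and 187 CPM and between 61.1 and 92.8 CPM. The libraries therefore carried little of the Hox signature of the labelled tissue. Neuronal markers were present in every library, with the sum of 16 genes between 2087 and 2612 CPM, so the label of differentiating neural cells was borne out by its own markers.

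Dcx (NCBI gene number 13193), the microtubule-binding protein of migrating immature neurons, was measured at 51.3, 75.9 and 97.3 CPM in Con replicates 1, 2 and 3. It was at 115, 117 and 98.6 CPM in the Exo libraries and at 75.0, 76.2 and 66.3 CPM in the pLV-Exo-Wnt5a libraries. All 3 Exo libraries lay above all 6 others, and the Con libraries spanned the range of the pLV-Exo-Wnt5a group and beyond. The group means were 74.8 ± 23.0, 110.3 ± 10.2 and 72.5 ± 5.44 CPM (SD, n = 3 each).

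Map2 (17756) was at 94.0, 149.8 and 184 CPM in the Con libraries, at 224, 187 and 174 CPM in the Exo libraries, and at 158, 124 and 134 CPM in the pLV-Exo-Wnt5a libraries. Exo and pLV-Exo-Wnt5a did not overlap for this dendritic protein, while Con replicate 3 reached the Exo range. Map1b (17755), which binds microtubules of growing axons, was at 449.9, 570.3 and 568 CPM in Con, at 625, 731 and 682 CPM in Exo, and at 541, 558 and 544 CPM in pLV-Exo-Wnt5a. Every Exo library again lay above the 6 others, and the 3 pLV-Exo-Wnt5a values were close together. Map2 had the widest spread of the 10 genes, with a highest level 2.39 times the lowest over the 9 libraries, followed by Dcx at 2.29 times and Map1b at 1.62 times.

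Dclk1 (13175), a protein with doublecortin domains and a kinase domain, was at 271, 356 and 349 CPM in Con, at 418, 424 and 420.1 CPM in Exo, and at 392, 402 and 366 CPM in pLV-Exo-Wnt5a. The groups followed each other without overlap, with Con lowest and Exo highest. Stmn2 (20257) was at 495, 549 and 535 CPM in Con, at 566, 708 and 651 CPM in Exo, and at 624, 709 and 569.5 CPM in pLV-Exo-Wnt5a. Gap43 (14432) was at 335, 386 and 387 CPM in Con, at 388, 513 and 460.1 CPM in Exo, and at 446, 503 and 412 CPM in pLV-Exo-Wnt5a. For both growth-cone genes the 3 Con libraries were the 3 lowest, and Exo and pLV-Exo-Wnt5a overlapped.

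For the other 4 genes the groups overlapped in all 3 comparisons. Mapt (17762), the gene of tau, had group means of 1805 ± 44.3 CPM in Con, 1936 ± 192 CPM in Exo and 1984 ± 192 CPM in pLV-Exo-Wnt5a (SD, n = 3 each). Tubb3 (22152), the beta-tubulin used as a marker of neurons, was at 2032, 1717 and 1654 CPM in Con, at 1517, 1880.4 and 1912 CPM in Exo, and at 1854, 2049 and 1521 CPM in pLV-Exo-Wnt5a. For Tubb3 the 3 groups overlapped, the pLV-Exo-Wnt5a libraries alone held nearly the whole range, and the group means, 1801, 1769.8 and 1808 CPM, lay within 1 SD of each other (SD 203, 219.7 and 267). Map1a (17754) had group means of 526 ± 21.3, 504 ± 44.2 and 537 ± 24.8 CPM in Con, Exo and pLV-Exo-Wnt5a. Rbfox3 (52897), whose product NeuN is a splicing regulator of mature neurons, had group means of 87.2 ± 1.35, 87.6 ± 7.31 and 90.8 ± 12.9 CPM in the same order.

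**Figure D1:**
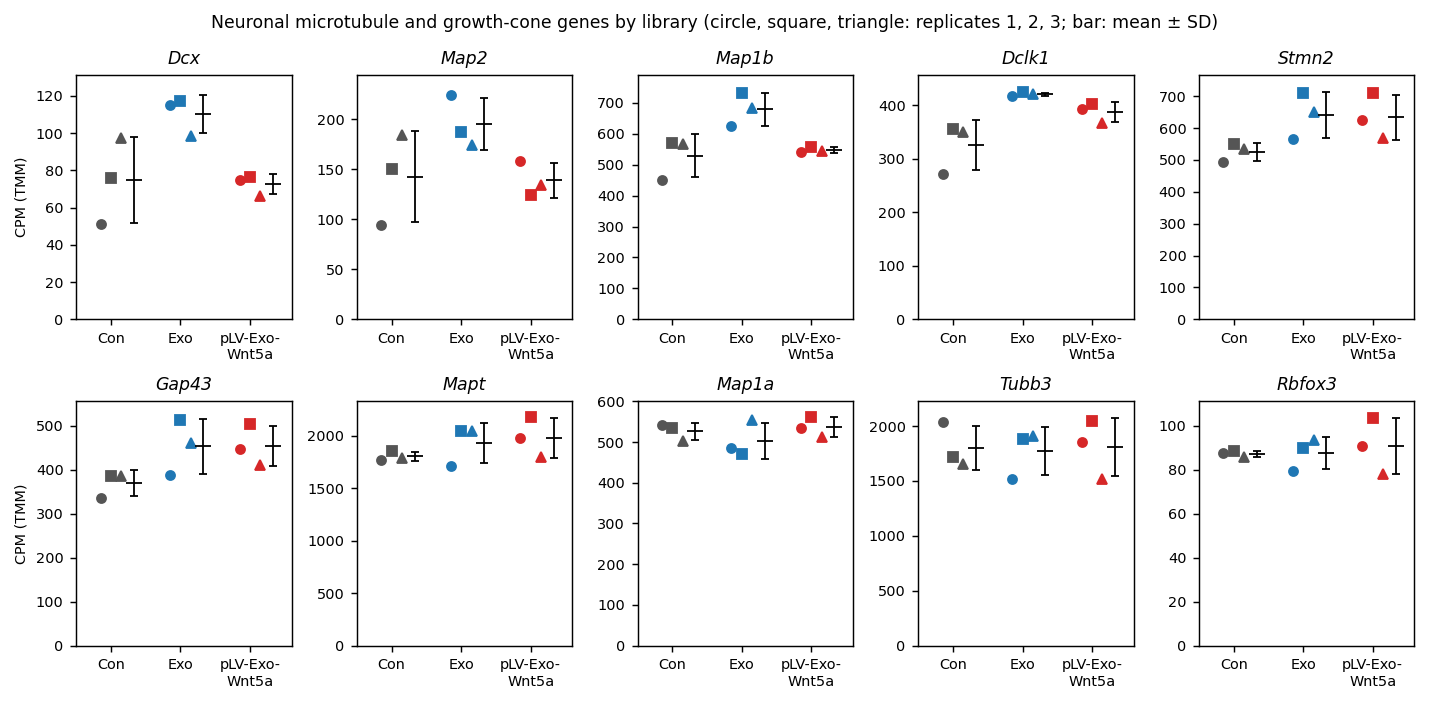
Levels of the 10 genes in CPM (y axis, starting at 0) in each of the 9 libraries, by group on the x axis, with circle, square and triangle for replicates 1, 2 and 3 and the mean ± SD beside them. For Dcx the 3 Exo libraries, at 98.6 to 117 CPM, lie above all others, while for Tubb3 and Rbfox3 the groups overlap.

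The comparison of the Exo and Con groups asks how these genes stand with exosomes of the vector-control donor cells against medium without exosomes. Log2 fold changes (log2FC), their standard errors (SE) and p-values came from edgeR's quasi-likelihood test on the 6 libraries compared, and Q is the p-value adjusted by the Benjamini-Hochberg method over all genes tested, with the threshold at 0.05. At that threshold 0 of the 10 genes passed, against 0.00% of the 15070 genes tested called higher and 0.00664% lower. DESeq2 on the same libraries also called 0 of the 10, against 1.06% of all genes higher and 0.338% lower. At an unadjusted p under 0.05, 6 of the 10 were higher in Exo (Dcx, Map2, Map1b, Dclk1, Stmn2 and Gap43) and 0 lower, against 8.92% of all genes higher and 6.01% lower (14.9% in all). The groups did not overlap for 5 of the 10, all higher in Exo, against 10.8% of all genes higher and 12.4% lower. A log2FC above 0 was found for 8 of the 10, against 50.3% of all genes. The median log2FC of the 10 genes was 0.29, and that of all genes tested was 0.002.

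The largest of these values belonged to Dcx, with a log2FC of 0.56 (SE 0.19, 95% interval 0.14 to 0.98, edgeR Q = 0.275). Map2 had a log2FC of 0.45 (SE 0.20, 95% interval 0.01 to 0.90, edgeR Q = 0.330). Without Con replicate 1, the lowest library for both genes, the log2FC was 0.34 for Dcx and 0.22 for Map2 (edgeR Q = 0.274 and 0.457), and without Con replicate 3 it was 0.80 for Dcx (Q = 0.0324) and 0.68 for Map2 (Q = 0.0533), in a fit in which 2.40% of all genes passed. Map1b, Dclk1, Stmn2 and Gap43 had log2FC of 0.36, 0.37, 0.29 and 0.30, each with an SE of 0.10 or 0.11 and an edgeR Q between 0.265 and 0.284. The remaining 4 genes had log2FC between -0.06 for Map1a and 0.10 for Mapt. For Tubb3 the value was -0.02 (95% interval -0.28 to 0.23) and for Rbfox3 0.01 (95% interval -0.18 to 0.20). Without Con replicate 1, 5 of the 10 were higher at an unadjusted p under 0.05 (6.81% of all genes), and without Exo replicate 2 this was 3 of the 10 (6.14% of all genes).

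Markers of other cell types are given beside these values. The 9 neural stem cell markers summed to between 3258 and 3528 CPM in Con and between 2783 and 3247 CPM in Exo, and the 10 astrocyte markers to between 5165 and 6330 CPM and between 5071 and 5122 CPM, with no overlap in either. Of the stem cell markers 8 of 9 had a log2FC below 0 (median -0.14), where 50.3% of all genes lay above 0. Vim, the most abundant, was at 1732 ± 241 CPM in Con and 1335 ± 119 CPM in Exo and weighed most in that sum. Sox2 alone lay above 0 (log2FC 0.26, edgeR Q = 0.363). The lower astrocyte sum was not shared by most of its markers, of which 6 of 10 had a log2FC above 0 (median 0.14), while Gfap, the most abundant, was at 2551 ± 478 CPM in Con and 2227 ± 42.2 CPM in Exo (SD, n = 3 each, log2FC -0.19, edgeR Q = 0.438). In edgeR 0 of the stem cell, astrocyte, oligodendrocyte and microglia markers passed. At an unadjusted p under 0.05, 3 of 9 stem cell markers, 3 of 9 tested oligodendrocyte markers, 4 of 7 tested microglia markers and 1 of 10 astrocyte markers were lower in Exo, and 2 astrocyte markers higher, against 6.01% of all genes lower and 8.92% higher. Their part in the values of the 10 genes was not tested.

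The comparison of the pLV-Exo-Wnt5a and Exo groups asks what Wnt5a overexpression in the donor cells adds. Dcx was lower in the pLV-Exo-Wnt5a group, at 0.661 times its Exo level (log2FC -0.60, SE 0.08, 95% interval -0.78 to -0.42, edgeR Q = 0.0113). It was 1 of the 10 genes to pass, against 0.0925% of the 15132 genes tested that were called lower and 0.344% called higher (0.436% in all). With a 2-fold limit added, 0 of the 10 passed, against 0.159% of all genes. Map2 and Map1b lay in the same direction without passing: Map2 had a log2FC of -0.48 (SE 0.10, 95% interval -0.71 to -0.25, edgeR Q = 0.0759) and Map1b of -0.30 (SE 0.06, 95% interval -0.45 to -0.16, edgeR Q = 0.0755). At an unadjusted p under 0.05 these 3 genes were lower and 0 of the 10 higher, against 6.91% of all genes lower and 5.07% higher. The groups did not overlap for 4 of the 10, Dclk1 being the fourth, all lower in pLV-Exo-Wnt5a, against 8.57% of all genes lower and 7.90% higher. Dclk1 had a log2FC of -0.11 (SE 0.05, edgeR Q = 0.468). A log2FC above 0 was found for 5 of the 10, against 51.4% of all genes.

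The call of Dcx was lost without Exo replicate 2 (log2FC -0.56, edgeR Q = 0.113), without pLV-Exo-Wnt5a replicate 1 (log2FC -0.62, Q = 0.0510), and when the fit used all 9 libraries (log2FC -0.61, Q = 0.312), and over 12 alternatives Q ranged from 1.21e-07 in DESeq2 to that value. Map2 and Map1b passed in DESeq2 (Q = 0.00216 and 0.00275, against 1.49% of all genes called lower by DESeq2 and 1.22% higher), with Q from 0.000687 to 0.558 and from 0.00275 to 0.336 over their alternatives. The other 6 genes, Mapt, Map1a, Tubb3, Stmn2, Gap43 and Rbfox3, had log2FC between -0.01 and 0.10 and edgeR Q of at least 0.631. Among them Stmn2 had a 95% interval of -0.22 to 0.20 and Gap43 of -0.21 to 0.23. The median log2FC of the 10 genes was 0.0002 and that of all genes 0.005.

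Of the glial and progenitor markers, Gfap and Vim passed in the same comparison, in which 0.436% of all genes passed. Gfap, the intermediate filament of astrocytes, rose from 2227 ± 42.2 CPM in Exo to 4024 ± 50.2 CPM in pLV-Exo-Wnt5a (SD, n = 3 each), a log2FC of 0.86 (SE 0.05, edgeR Q = 3.36e-05). Vim, an intermediate filament of progenitors and astrocytes, rose from 1335 ± 119 to 2043 ± 334 CPM, a log2FC of 0.62 (SE 0.11, edgeR Q = 0.0389). Relative to Con neither passed, with a log2FC of 0.66 for Gfap (edgeR Q = 0.129) and 0.24 for Vim (edgeR Q = 0.649). Gfap was the only one of 10 astrocyte markers to pass. Of the 10, 7 had a log2FC below 0, where 51.4% of all genes lay above 0. The higher summed level, 5071 to 5122 CPM in Exo and 6695 to 7057 CPM in pLV-Exo-Wnt5a, was thus carried by Gfap. The 9 neural stem cell markers summed to between 2783 and 3247 CPM in Exo and between 3165 and 4124 CPM in pLV-Exo-Wnt5a, with Vim the 1 gene to pass. The 10 markers of the oligodendrocyte lineage summed to between 2680 and 2917 CPM in Exo and between 2582 and 2861 CPM in pLV-Exo-Wnt5a, with Mog at no more than 11 counts in a library. The 10 microglia and macrophage markers summed to between 14.9 and 16.7 CPM in Con, 7.68 and 8.76 CPM in Exo, and 13.1 and 17.4 CPM in pLV-Exo-Wnt5a, with 0 of the 7 tested past the edgeR threshold and Ptprc, P2ry12 and Tmem119 at no more than 14 counts in a library. The 8 mesenchymal markers summed to between 22.9 and 27.1 CPM in Exo and between 26.9 and 32.0 CPM in pLV-Exo-Wnt5a. The sum of the 16 neuronal markers, 2164 to 2549 CPM in Exo and 2087 to 2612 CPM in pLV-Exo-Wnt5a, overlapped between these groups. With edgeR at an unadjusted p under 0.05, 2 astrocyte markers were higher in pLV-Exo-Wnt5a than in Exo and 4 lower. Of the 9 stem cell markers 2 were higher and 0 lower, and of 9 tested oligodendrocyte markers 2 were higher and 1 lower. All 7 tested microglia markers had a log2FC above 0, and 4 of them were higher at that threshold. Over all genes 5.07% were higher and 6.91% lower. The part of these markers in the Dcx result was not tested.

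When the pLV-Exo-Wnt5a group was set against Con, 0 of the 10 genes passed in edgeR, against 0.0862% of the 15089 genes tested (0.0795% higher, 0.00663% lower, and 0.0663% with a 2-fold limit added). In DESeq2 0 of the 10 passed as well, against 0.311% of all genes higher and 0.166% lower. At an unadjusted p under 0.05, 3 of the 10 were higher in pLV-Exo-Wnt5a and 0 lower, against 4.20% and 4.15% of all genes (8.35% in all). These were Gap43 with a log2FC of 0.30 (SE 0.10, 95% interval 0.08 to 0.51, edgeR Q = 0.505), Stmn2 with 0.27 (SE 0.10, 95% interval 0.06 to 0.48, edgeR Q = 0.529) and Dclk1 with 0.25 (SE 0.11, 95% interval 0.02 to 0.48, edgeR Q = 0.585), and the same 3 were the genes whose groups did not overlap, against 7.52% of all genes higher without overlap and 9.09% lower. A log2FC above 0 was found for 8 of the 10, against 50.8% of all genes. Without pLV-Exo-Wnt5a replicate 2, 0 of the 10 had an unadjusted p under 0.05, in a fit with 3.47% of all genes higher and 2.40% lower. Without Con replicate 1 the log2FC of Dclk1 was 0.13 (SE 0.06, edgeR Q = 0.542). Dcx had a log2FC of -0.05 (95% interval -0.43 to 0.34) and Map2 of -0.04 (95% interval -0.45 to 0.37) in this comparison. Without Con replicate 1 the log2FC was -0.26 for Dcx and -0.27 for Map2, with edgeR Q of 0.492 for both, and without Con replicate 3 it had the opposite sign, 0.19 for Dcx and 0.18 for Map2. The count at an unadjusted p under 0.05 was 2 higher and 2 lower without Con replicate 1 (4.30% and 5.01% of all genes). The median log2FC of the 10 genes was 0.05, and that of all genes was 0.004. The astrocyte markers summed to 5165 to 6330 CPM in Con and 6695 to 7057 CPM in pLV-Exo-Wnt5a, without overlap. In edgeR 0 of the stem cell, astrocyte, oligodendrocyte and microglia markers passed here. At the unadjusted threshold 1 of 10 astrocyte markers was higher and 1 lower, against 4.20% and 4.15% of all genes. Also lower were 1 of 9 stem cell, 2 of 9 tested oligodendrocyte and 1 of 7 tested microglia markers. The part of these markers was not tested.

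Each group enters 2 of the 3 comparisons, so the values of a gene in different comparisons are not independent and are set side by side here as a description. Relative to Con, Stmn2 and Gap43 had log2FC of 0.29 and 0.30 in Exo and of 0.27 and 0.30 in pLV-Exo-Wnt5a, with -0.01 and 0.01 between the exosome groups. Dcx, Map2 and Map1b had 0.56, 0.45 and 0.36 in Exo relative to Con, -0.05, -0.04 and 0.05 in pLV-Exo-Wnt5a relative to Con, and -0.60, -0.48 and -0.30 between the exosome groups. Dclk1 lay between these sets, with 0.37, 0.25 and -0.11. In a test of any difference among the 3 groups over the 9 libraries, 0 of the 10 genes passed in edgeR, against 0.246% of 15458 genes, and 6 had an unadjusted p under 0.05, against 14.8% of all genes. Dcx and Map1b passed in the likelihood ratio test of DESeq2, 2 of the 10 against 3.34% of all genes. In edgeR the Q of Tubb3 was 0.989 and that of Rbfox3 0.913.

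**Figure D2:**
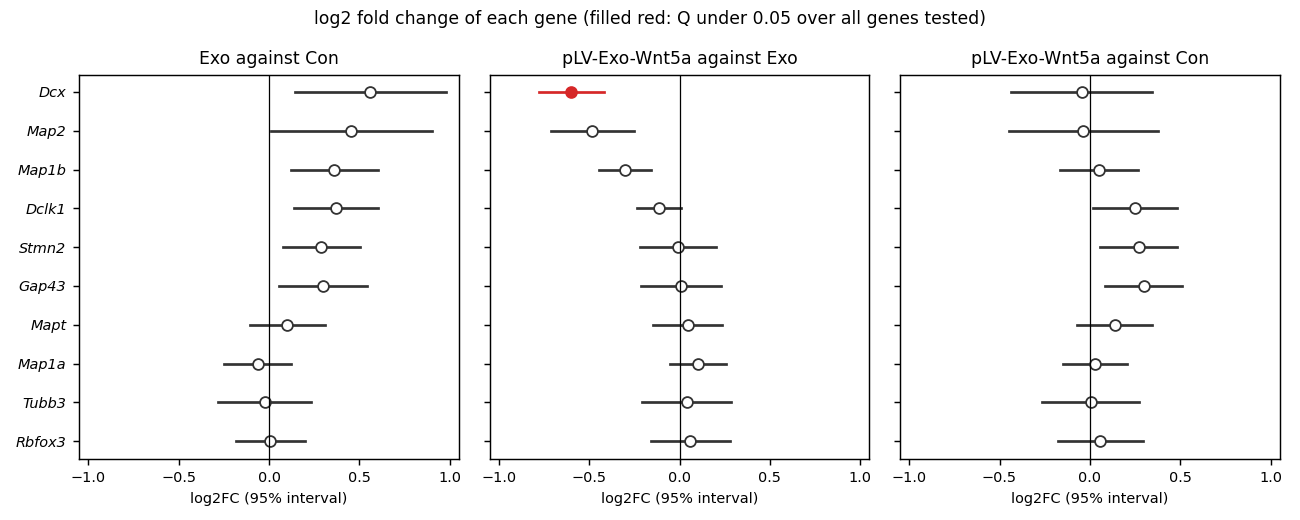
Log2 fold change (x axis) of each gene (y axis) in the 3 comparisons, with 95% intervals; filled red marks Q under 0.05 over all genes tested. Dcx, at -0.60 in pLV-Exo-Wnt5a against Exo, is the only filled point.

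The doublecortin family gave a second gene past the threshold. Dclk2, which like Dclk1 joins doublecortin domains to a kinase domain, was at 402, 404 and 438 CPM in the Exo libraries and at 537, 555 and 529 CPM in the pLV-Exo-Wnt5a libraries, with no overlap. It rose with a log2FC of 0.39 (SE 0.06, edgeR Q = 0.0152), opposite in direction to Dcx. Its Con libraries were at 529.6, 483 and 459 CPM, and its log2FC for Exo against Con was -0.24 (SE 0.08, edgeR Q = 0.275). The call was lost without Exo replicate 2 (Q = 0.158) and without pLV-Exo-Wnt5a replicate 1 (Q = 0.0811), the same libraries as for Dcx. Of the counts that fell on Dcx, Dclk1, Dclk2 and Dclk3 together, Dcx held 8.24 ± 2.33% in Con, 11.5 ± 1.17% in Exo and 7.15 ± 0.302% in pLV-Exo-Wnt5a, and Dclk2 held 54.5 ± 6.03%, 43.3 ± 1.68% and 53.4 ± 0.872% (SD, n = 3 each). The Dcx share did not overlap between Exo (10.2% to 12.3%) and pLV-Exo-Wnt5a (6.81% to 7.37%), nor did the Dclk2 share (42.2% to 45.2% and 52.7% to 54.4%). Between Exo and Con the Dcx share overlapped, with Con replicate 3 at 10.6% and Exo replicate 3 at 10.2%. The Dclk2 share of Con, 50.0% to 61.3%, lay above that of Exo. A share compares a gene with its relatives inside 1 library and needs no scaling between libraries, but it follows the lengths of the transcripts as well as their numbers. Reads in stretches that family members share could have been split in the counting.

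Similar shares were taken in the other families. Map2 held 5.34 ± 1.64% of the counts on Map2, Map4 and Mapt in Con, 6.99 ± 1.44% in Exo and 4.90 ± 0.739% in pLV-Exo-Wnt5a, with ranges of 5.92% to 8.63% and 4.08% to 5.51% in the last pair. Stmn2 held 24.5 ± 2.12% of the stathmin counts in Con, 27.5 ± 0.369% in Exo and 27.0 ± 0.410% in pLV-Exo-Wnt5a, and its Con share, 22.1% to 25.9%, lay below that of every library with exosomes. The stathmins Stmn1, Stmn3 and Stmn4 had log2FC of 0.10, -0.02 and 0.06 for Exo against Con, with edgeR Q of at least 0.623. Tubb3 held between 18.1% and 19.7% of the beta-tubulin counts in every library. Its share thus varied little where its CPM ranged from 1517 to 2049.

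**Figure D3:**
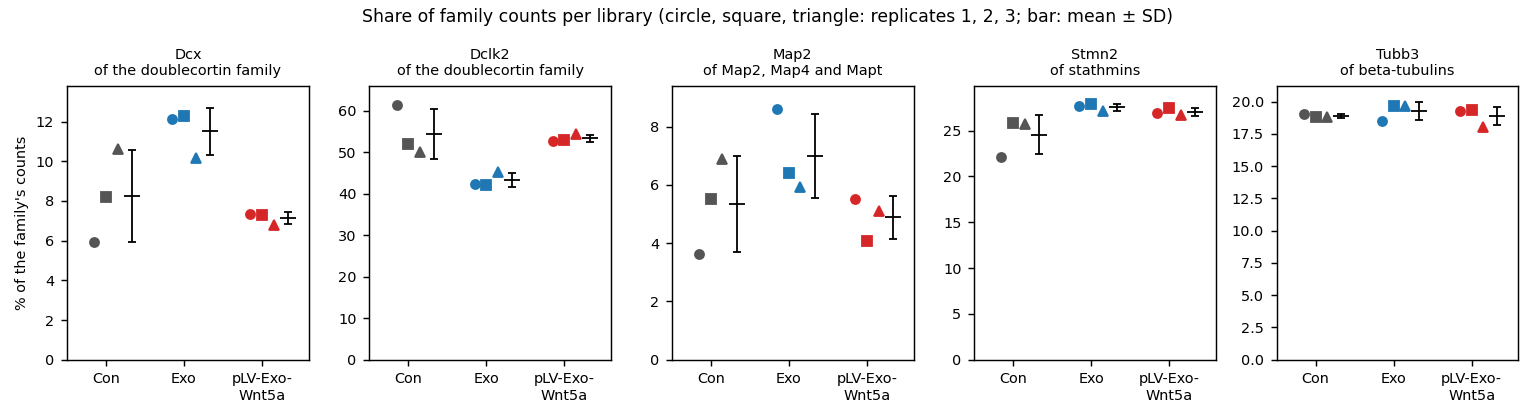
Share of a gene in the counts of its family (y axis, percent, starting at 0) per library, by group on the x axis, with symbols for replicates 1, 2 and 3 and mean ± SD. The Dcx share is higher in Exo (10.2% to 12.3%) than in pLV-Exo-Wnt5a (6.81% to 7.37%), the Dclk2 share lower, and the Tubb3 share stays between 18.1% and 19.7%.

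Over the 9 libraries several of the 10 genes varied together. Pearson correlations of log2 CPM are given as descriptions, since the libraries share group differences, depth and composition. Stmn2 and Gap43, the growth-cone pair, had r = 0.99 over all 9 libraries and 0.98 after the group means were removed. Map2 and Dcx had r = 0.94 (0.89 after removal of the group means, 0.88 without Con replicate 1), and Map1b and Dcx 0.90 (0.76 and 0.82). Mapt varied with Stmn2 (r = 0.89), Gap43 (0.88) and Rbfox3 (0.87), and Tubb3 with Rbfox3 (0.85). Dclk1 varied with both Map1b (0.84) and Dcx (0.79) and with Gap43 (0.80) and Stmn2 (0.79), and Map1b had 0.67 with Gap43 and 0.66 with Stmn2, so over all 9 libraries the genes did not fall into separate sets. Many values depended on Con replicate 1. Without it the r of Dclk1 went from 0.74 to 0.34 with Map2 and from 0.79 to 0.56 with Dcx, and that of Map1b with Gap43 from 0.67 to 0.43. In the other direction, the r of Tubb3 went from 0.38 to 0.82 with Stmn2, from 0.32 to 0.82 with Gap43 and from 0.68 to 0.97 with Mapt, and that of Map2 with Gap43 changed sign, from 0.29 to -0.28. The lowest values over the 9 libraries were r = -0.63 for Map2 and Map1a, -0.61 for Map1a and Dcx, and -0.53 for Map2 and Tubb3. The immature marker Dcx and the pan-neuronal markers Tubb3 and Rbfox3 thus did not rank the libraries alike, with r = -0.30 and -0.04. Exo replicate 1, for example, was among the highest libraries for Dcx and Map2 and the lowest for Tubb3 and Mapt.

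**Figure D4:**
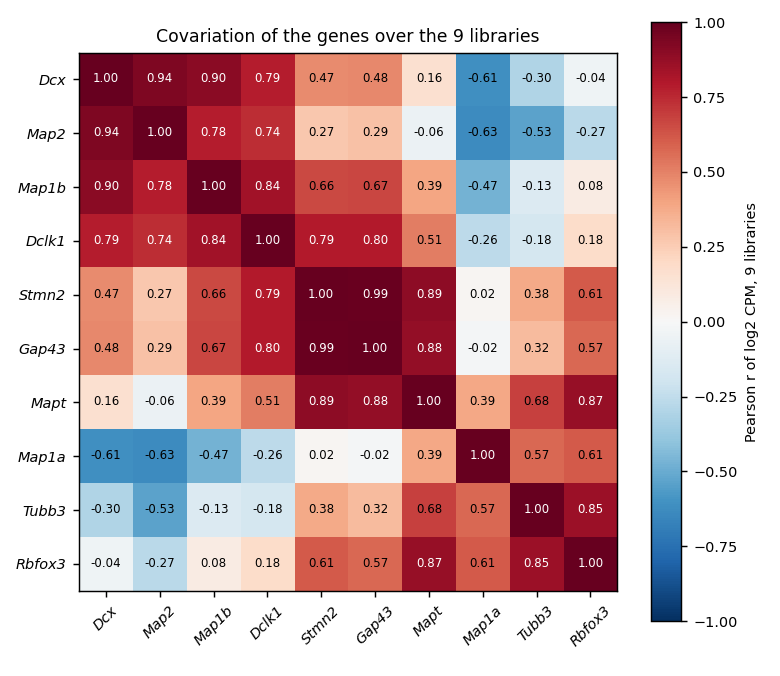
Pearson correlation of log2 CPM over the 9 libraries for each pair of the 10 genes, on a colour scale from -1 to 1. Values run from -0.63 (Map2 and Map1a) to 0.99 (Stmn2 and Gap43), with Dclk1 high both with Dcx (0.79) and with Gap43 (0.80), and and Con replicate 1 moves several values (without it Map2 and Dclk1 go from 0.74 to 0.34, Tubb3 and Stmn2 from 0.38 to 0.82).

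The mean of the 10 standardized log2 CPM values was lowest in Con replicate 1 (-1.01) and highest in pLV-Exo-Wnt5a replicate 2 (0.77), Exo replicate 3 (0.76) and Exo replicate 2 (0.71). pLV-Exo-Wnt5a replicate 3 (-0.64) lay within the range of the Con libraries on this measure, and Exo replicate 1 (-0.22) just above the highest of them (-0.25). Among 9237 other genes with a mean of at least 10 CPM, those most like this mean over the 9 libraries were Rgmb (r = 0.97), a coreceptor of bone morphogenetic proteins, Vash2 (0.96), a vasohibin that removes the last tyrosine of alpha-tubulin, and Camk2g (0.96), a calcium-dependent kinase. They were followed by Lrfn5, Dact1, Phf24, Gabbr2, Atp2b3, Gprin2 and Mapre2, the last of them a protein of microtubule plus ends, all with r between 0.945 and 0.95.

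The wider microtubule and growth-cone machinery was read from 121 further genes in 9 lists, of which 120 were tested. Between Exo and Con 0 of the 120 passed in edgeR, and at an unadjusted p under 0.05, 23 were higher in Exo and 3 lower (8.92% and 6.01% of all genes), with a median log2FC of 0.09. Between pLV-Exo-Wnt5a and Exo 1 passed, which was Dclk2, and 3 were higher and 10 lower at an unadjusted p under 0.05 (5.07% and 6.91% of all genes), with a median of 0.04. Between pLV-Exo-Wnt5a and Con 0 passed, and 11 were higher and 0 lower at an unadjusted p under 0.05 (4.20% and 4.15% of all genes), with a median of 0.09.

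Of the 21 tested growth-cone genes, 8 were higher in Exo than in Con at an unadjusted p under 0.05 and 0 lower (8.92% and 6.01% of all genes), with a median log2FC of 0.15. Among them were Gpm6a, a membrane glycoprotein of neurites, at 0.73, Marcks, an actin-binding relative of Gap43 in function, at 0.48, and Dpysl2, the collapsin response mediator that carries tubulin to microtubules, at 0.31 (edgeR Q between 0.265 and 0.271). Dpysl2 was at 222, 189 and 183 CPM in Con, 233, 259.6 and 245 CPM in Exo, and 249, 247 and 222 CPM in pLV-Exo-Wnt5a. All Con libraries lay below the others for this gene, by little in the case of replicate 1. Between pLV-Exo-Wnt5a and Exo, 0 growth-cone genes were higher and 1 lower at the unadjusted threshold (5.07% and 6.91% of all genes).

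Of the 10 neuronal RNA-binding proteins, 4 were higher in Exo than in Con at an unadjusted p under 0.05 and 0 lower (8.92% and 6.01% of all genes), with a median log2FC of 0.26. Elavl2, which binds AU-rich elements of neuronal transcripts, was at 3.93, 5.93 and 8.57 CPM in Con, 14.4, 15.0 and 9.82 CPM in Exo, and 7.45, 9.79 and 8.14 CPM in pLV-Exo-Wnt5a. Its log2FC was 1.09 for Exo against Con (SE 0.27, edgeR Q = 0.265) and -0.62 for pLV-Exo-Wnt5a against Exo (SE 0.17, edgeR Q = 0.175), with no overlap in either. The 3 Exo libraries were the highest of the 9, as for Dcx. Rbfox1, a relative of Rbfox3, had a log2FC of 0.54 for Exo against Con (SE 0.16, edgeR Q = 0.265), and Celf4, which binds synaptic transcripts, of 0.47 (SE 0.17, edgeR Q = 0.277).

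Of the 20 factors that act at microtubule ends or sever microtubules, 4 were higher and 2 lower in Exo than in Con at an unadjusted p under 0.05 (8.92% and 6.01% of all genes), and 0 were higher and 3 lower in pLV-Exo-Wnt5a than in Exo (5.07% and 6.91%). Pafah1b1 (Lis1), a dynein regulator needed for neuronal migration as Dcx is, was at 50.3, 70.4 and 91.9 CPM in Con, 116, 111 and 85.5 CPM in Exo, and 75.0, 81.5 and 85.1 CPM in pLV-Exo-Wnt5a. Its log2FC was 0.56 (SE 0.19, edgeR Q = 0.277) and -0.36 (SE 0.10, edgeR Q = 0.187) in these comparisons. The kinesin Kif2a, a depolymerase of neurons, had 0.57 for Exo against Con (edgeR Q = 0.273), and Kif2c, its mitotic relative, -0.48 (edgeR Q = 0.277).

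Of the 14 further structural proteins of microtubules, 2 were higher and 1 lower in Exo than in Con at an unadjusted p under 0.05 (8.92% and 6.01% of all genes), and 1 was higher and 3 lower in pLV-Exo-Wnt5a than in Exo (5.07% and 6.91%). Map9 had a log2FC of -0.60 (SE 0.22, edgeR Q = 0.309) in the latter, at 3.98 ± 0.94 CPM against 6.07 ± 1.31 CPM. Tppp3, which bundles microtubules, had 0.37 in Exo and 0.41 in pLV-Exo-Wnt5a relative to Con (edgeR Q = 0.299 and 0.556). Of the 15 kinases and phosphatase subunits that act on microtubule-associated proteins, 3 were higher and 0 lower in Exo than in Con, and 0 were higher and 2 lower in pLV-Exo-Wnt5a than in Exo, at the same threshold and against the same shares of all genes. Mapk8 (JNK1), a kinase of Map2, Dcx and Stmn2, had a log2FC of 0.51 for Exo against Con (SE 0.21, edgeR Q = 0.302). Gsk3b, a tau kinase, had 0.32 for Exo against Con (edgeR Q = 0.304) and -0.17 for pLV-Exo-Wnt5a against Exo (edgeR Q = 0.410), and Ttbk2, another tau kinase, -0.50 in the latter (SE 0.14, edgeR Q = 0.167).

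Tubulins, the enzymes that modify them and the kinesins that run along axons made up the last lists. Of the 13 other tubulins, 0 were higher or lower in Exo than in Con at an unadjusted p under 0.05 (8.92% and 6.01% of all genes), with a median log2FC of -0.08, and 1 was higher in pLV-Exo-Wnt5a than in Exo (Tuba1c, log2FC 0.21, edgeR Q = 0.402) and 0 lower (5.07% and 6.91%), with a median of 0.07. The neuronal isotypes Tubb2a and Tuba4a had 0.12 and 0.25 for Exo against Con (edgeR Q = 0.493 and 0.346). Of the 12 tubulin-modifying enzymes, 2 were higher in Exo than in Con and 0 lower (8.92% and 6.01% of all genes), namely Ttl, the tubulin tyrosine ligase, at 0.21, and Vash2, which acts in the opposite sense, at 0.25 (edgeR Q = 0.322 and 0.284), while Vash1 had 0.11 for pLV-Exo-Wnt5a against Exo (edgeR Q = 0.417). Of the 12 axonal kinesins, 0 were past the unadjusted threshold for Exo against Con or for pLV-Exo-Wnt5a against Exo. Kif5a and Kif5c, the neuronal conventional kinesins, had log2FC of 0.15 and 0.43 for Exo against Con (edgeR Q = 0.455 and 0.336). Kif5b, the form found in all tissues, had -0.43 for pLV-Exo-Wnt5a against Exo (SE 0.20, edgeR Q = 0.436), at 3.66 ± 0.48 CPM against 4.98 ± 1.05 CPM.

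**Figure D5:**
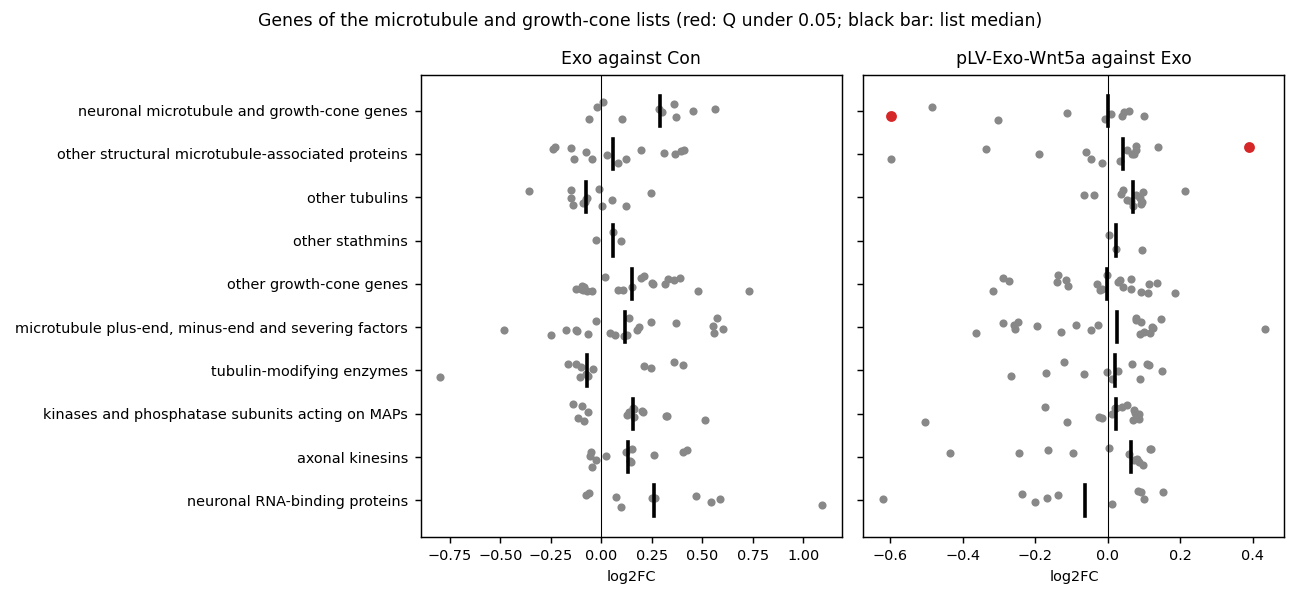
Log2 fold change (x axis) of each tested gene of the 10-gene set and of the 9 further lists (y axis) for Exo against Con (left) and pLV-Exo-Wnt5a against Exo (right), with grey points, red points for Q under 0.05 and black bars for list medians; the vertical scatter within a list carries no value. The red points are Dcx at -0.60 and Dclk2 at 0.39, both for pLV-Exo-Wnt5a against Exo.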

How the data were processed

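The 9 RNA-seq libraries were read from 1 table of raw counts that the authors deposited, whole numbers with no normalization. According to their methods low-quality reads were removed and the rest aligned with HISAT2, whereas the submitters' processing notes name Bowtie2, RSEM 1.3.1 and DESeq2 1.4.5; the genome build is not given in the sources used here. The labels gave the group and replicate of each library.

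From the deposited counts, the genes kept by filterByExpr in the 6 libraries of a comparison were scaled by TMM and compared in edgeR 4.0.16 (R 4.3.3, quasi-likelihood test), with Benjamini-Hochberg adjustment (Q) over all genes tested. CPM and correlations used TMM over 9 libraries, the latter on log2 CPM with a prior count of 2. Alternatives were RLE scaling, DESeq2 1.42.0, other filters and thresholds, a fit on 9 libraries, the replicate number as a block, and leaving out each library. The steps were tested on simulated data. The genes and lists were chosen with earlier results of these data known. Named from the lists were all genes past Q and up to 3 per list with the smallest p. Transcript lengths and proteins were not used here.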

Additional observations from a re-analysis of the deposited data

How the results depend on the processing

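Over the alternatives run, 422 values kept their direction and side of the threshold or moved by less than the replicate spread, 10 passed where they had not, 3 no longer passed, 18 moved and 32 reversed. The number of the 10 genes past Q for Exo against Con, 0 in the report, was 3 without a filter on low counts (Dclk1, Dcx, Map1b; 1.93% of all genes, against 0.00664%) and 6 at an unadjusted p (14.9%). For pLV-Exo-Wnt5a against Exo, 1 in the report, it was 3 in DESeq2 (2.72% of all genes, against 0.436%), 3 without a filter (1.71%; Dcx, Map1b and Map2 in both) and 3 at an unadjusted p (6.91% lower), 2 with the replicate block (Dcx, Map2; 0.767%), and 0 with a 2-fold limit (0.159%) or with edgeR on 9 libraries (0.298%). For pLV-Exo-Wnt5a against Con it was 3 at an unadjusted p (8.35%), and for any difference 2 in DESeq2 (3.34%), 6 without a filter (4.10%) and 6 at an unadjusted p (14.8%), against 0 in each. Why the filter and the tool moved these counts was not tested. Leaving out 1 library gave 0 to 1 for Exo against Con (1 without Con replicate 3, with 2.40% of all genes, and 0.00% to 0.0453% in the others), 0 to 2 for pLV-Exo-Wnt5a against Exo (0.123% to 0.620% of all genes), 0 to 0 for pLV-Exo-Wnt5a against Con and 0 to 1 for any difference (0.120% to 1.81%), and medians of the 10 log2FC of 0.20 to 0.36, -0.09 to 0.06 and 0.04 to 0.16. Reversals in the fits with all libraries were Gap43 at -0.0025 for pLV-Exo-Wnt5a against Exo (edgeR on 9 libraries), and Map2 at 0.0025 and Tubb3 at -0.00061 for pLV-Exo-Wnt5a against Con (replicate block). The labels link replicates of the same number only by that number and do not say whether they were prepared together. Their deviations from the group means had r of -0.20 to 0.06 over 9 pairs. Log2FC that reversed on leaving out 1 library ranged, for Exo against Con, from -0.035 to 0.074 (Rbfox3) and -0.081 to 0.078 (Tubb3). For pLV-Exo-Wnt5a against Exo they ranged from -0.093 to 0.099 (Gap43), -0.037 to 0.10 (Mapt), -0.046 to 0.15 (Rbfox3), -0.097 to 0.062 (Stmn2) and -0.061 to 0.14 (Tubb3). For pLV-Exo-Wnt5a against Con they ranged from -0.26 to 0.19 (Dcx), -0.0080 to 0.063 (Map1a), -0.059 to 0.11 (Map1b), -0.27 to 0.18 (Map2), -0.044 to 0.16 (Rbfox3) and -0.088 to 0.12 (Tubb3). Values per transcript length were not run, since no lengths of the organism of the files were at hand. The precision is that of 3 libraries a group.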

Other observations

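The genes that varied most like single members were named after their values were seen. For Dcx they were Ibtk (r = 0.97 over 9 libraries), Pcdh7, Dock4, Cpeb2 and Csrnp3, with r of at least 0.956 and mean levels between 11.6 and 35.8 CPM. For Tubb3 they were Septin5 (r = 0.99), the alpha-tubulin Tuba1a, the growth-cone protein Gprin1, the ubiquitin hydrolase Uchl1 and Aplp1, a relative of the amyloid precursor protein, with r of at least 0.988 and mean levels between 336 and 7363 CPM. The libraries share depth, composition and group differences, so these values are descriptions.

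Of the neuronal markers outside the cytoskeleton, 6 are given here, chosen after their values were seen. Snap25, a protein of synaptic vesicle fusion, had a log2FC of 0.66 for Exo against Con (SE 0.18, edgeR Q = 0.265) and -0.09 for pLV-Exo-Wnt5a against Exo (edgeR Q = 0.800). Gad1, an enzyme of GABA synthesis, had 0.34 (SE 0.09, edgeR Q = 0.265) and -0.03 (edgeR Q = 0.924). Syp and Syn1, proteins of synaptic vesicles, had 0.03 and -0.01 for Exo against Con (edgeR Q = 0.885 and 0.954). Of the 16 neuronal markers, 0 passed in edgeR for Exo against Con, and 13 had a log2FC above 0 (50.3% of all genes). In that comparison 5 were higher and 0 lower at an unadjusted p under 0.05 (8.92% and 6.01% of all genes). For pLV-Exo-Wnt5a against Exo, 0 of the 16 passed, and 11 had a log2FC below 0, where 51.4% of all genes lay above 0. There 0 were higher and 2 lower at an unadjusted p under 0.05 (5.07% and 6.91% of all genes), these being Thy1 at -0.22 and Syt1 at -0.18 (edgeR Q = 0.155 and 0.385). For pLV-Exo-Wnt5a against Con, 0 of the 16 passed, and 15 had a log2FC above 0 (50.8% of all genes). At the unadjusted threshold 3 were higher and 0 lower (4.20% and 4.15% of all genes).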
